A study of Sus scrofa with 12 samples.

Results

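FTO and ALKBH5 are the 2 genes for m6A erasers, enzymes that remove the methyl group of N6-methyladenosine (m6A) from RNA. They were picked by gene name from the 18060 genes of the deposited expression table, where each had 1 row, and all peaks carrying these names were taken from the 3 deposited m6A tables. The samples were follicular granulosa cells in primary culture, which nurse the oocyte and make steroid hormones. They came from the antral follicles of mature crossbred sows (Sus scrofa; Duroc × Yorkshire × Landrace) and were grown in DMEM/F-12 medium with fetal bovine serum. Normoxia was 21% O2 with 74% N2, hypoxia was 1% O2 with 94% N2, both had 5% CO2, and both lasted 12 h. Per condition, 3 biological replicates each gave an input library, made from fragmented polyadenylated RNA, and a library pulled down with an m6A antibody (IP), which makes 12 libraries. The labels do not say whether the replicates are cells of separate sows, so the p-values measure the spread between these libraries, which may be partly technical.

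The m6A mark is written mainly by a nuclear complex around METTL3 and METTL14, is bound by reader proteins of the YTH and IGF2BP families, and is erased by FTO and ALKBH5. Both erasers are dioxygenases of the AlkB family, which use molecular oxygen, 2-oxoglutarate and ferrous iron to oxidise the methyl group. FTO also removes the methyl group of the related cap-adjacent mark m6Am, whereas ALKBH5 is known as an m6A demethylase in the nucleus, and in human cells ALKBH5 is known as a target of hypoxia-inducible factors. The title of the study concerns export of the FTO protein from the nucleus in hypoxia. These RNA data measure transcript levels and m6A peaks, not protein amount or place.

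FTO lies on the minus strand of chromosome 6 in Sscrofa11.1, from 31174569 to 31564718, a span of 390 kb. ALKBH5 lies on the minus strand of chromosome 12, from 60507667 to 60529733, a span of 22.1 kb. The genes therefore share no locus, and their RNA values come from separate rows of the expression table.

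The hypoxia label was borne out by VEGFA, which codes for an angiogenic growth factor, with 8.18 to 13.2 FPKM in normoxia and 122 to 156 in hypoxia, and by the glucose transporter gene SLC2A1, which averaged 23.8 and 171. FPKM, the unit of the table, is the fragment number of a gene divided by transcript length and by library total. It holds no fragment counts, and the sequencing depth is unknown. The summed FPKM of 10 granulosa markers ran from 83.2 to 90.9 in normoxia and from 72.1 to 82.0 in hypoxia. Of these 10 markers 7 were tested, and 0 were called higher and 2 lower, where 5.4% of all tested genes were called higher and 21.1% lower. The lower ones were FSHR (9.74 and 5.52 FPKM) and AMHR2 (2.72 and 0.784), and both lost their calls after median-ratio scaling (limma adjusted p = 0.141 and 0.0881). FOXL2 had 6.83 and 4.50 FPKM, INHA 10.4 and 10.5, and the untested HSD17B1 0.386 and 0.763. The aromatase gene CYP19A1 (0.233 and 0.119 FPKM) and AMH (0.118 and 0.0542), which also define granulosa cells, averaged under 0.5 FPKM. Summed over 8 fibroblast and smooth muscle markers, FPKM ran from 7551 to 9337 in normoxia and from 3852 to 4874 in hypoxia, most of it from the actin gene ACTA2. Of these 8 markers 2 were called higher and 2 lower in hypoxia, beside the same shares of 5.4% and 21.1% of all tested genes. PDGFRA (log2 fold change 0.84, limma adjusted p = 0.0121, 0.00618 after scaling) and COL1A1 (0.62, 0.0259, 0.0471 after scaling) were higher. ACTA2 (-1.14, 0.00456, 0.0249 after scaling) and DES (-0.65, 0.0492, 0.288 after scaling) were lower. With 1 library left out, PDGFRA lost its call in 2 runs, COL1A1 in 3 and DES in 5. The summed level therefore mostly shows ACTA2, not PDGFRA or COL1A1. The summed level of the 5 listed endothelial markers was 6.82 to 7.15 in normoxia and 3.29 to 3.39 in hypoxia. Nearly all of it was PECAM1, called lower (6.56 and 2.81 FPKM, limma adjusted p = 0.00414, and 0.0202 after scaling), while VWF, KDR, TEK and TIE1 averaged under 0.5 FPKM. The summed level of 4 leukocyte markers was 3.56 to 4.97 and 3.52 to 6.66, and that of 3 theca markers 1.88 to 2.03 and 0.734 to 1.33. Their part in the results below was not tested. In a culture of mixed cells, fewer cells of a type and less RNA per cell cannot be told apart. Hypoxia library 3 stood apart from the others: across tested genes its log2(FPKM + 1) correlated at 0.956 and 0.915 with hypoxia libraries 1 and 2, which correlated at 0.986 with each other. Its median-ratio factor, the typical ratio of its genes to their mean over libraries, was 0.751, against 0.947 to 1.15 in the other 5.

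ALKBH5 mRNA was higher in hypoxia and FTO mRNA was lower on the deposited scale, so that the order of the erasers changed: FTO was the more abundant eraser transcript in normoxia and ALKBH5 in hypoxia. FPKM is divided by transcript length, so this order between 2 genes rests on the gene models used. The rise of ALKBH5 also passed the test after the libraries were rescaled, whereas the fall of FTO did not. The summed FPKM of both genes was 29.2 ± 1.59 in normoxia and 29.9 ± 2.84 in hypoxia (SD, n = 3), ranges that overlapped.

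ALKBH5 had 9.43, 10.9 and 10.1 FPKM in normoxia libraries 1, 2 and 3 and 16.0, 16.2 and 18.0 in hypoxia libraries 1, 2 and 3. Each hypoxia library was above each normoxia library, and the groups were separated by more than the range within either. The means were 10.1 ± 0.723 and 16.7 ± 1.06 FPKM (SD, n = 3), a ratio of 1.65. On the log2(FPKM + 1) scale the change was 0.67 (SE 0.139) with an adjusted p of 0.0125 in limma, a linear model fitted to all tested genes. Of the 10196 tested genes, 26.5% were called in either direction at an adjusted p of 0.05, 5.4% were called higher and 9.25% had all hypoxia values above all normoxia values. ALKBH5 stood at percentile 94.2 of the log2 fold changes.

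FTO had 18.0, 18.9 and 20.2 FPKM in normoxia libraries 1, 2 and 3 and 12.3, 11.9 and 15.2 in hypoxia libraries 1, 2 and 3. Each hypoxia library was below each normoxia library, and hypoxia library 3 came nearest to the normoxia values. The means were 19.0 ± 1.15 and 13.1 ± 1.79 FPKM (SD, n = 3), a ratio of 0.690. The log2 change was -0.51 (SE 0.152) and limma's adjusted p was 0.0457. Calls in this direction were common, with 21.1% of tested genes called lower and 34.9% having all hypoxia values below all normoxia values. The median log2 fold change of all tested genes was -0.26, which leaves -0.24 for FTO relative to it and 0.93 for ALKBH5. FTO stood at percentile 30.2 of the log2 fold changes.

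**Figure D1:**
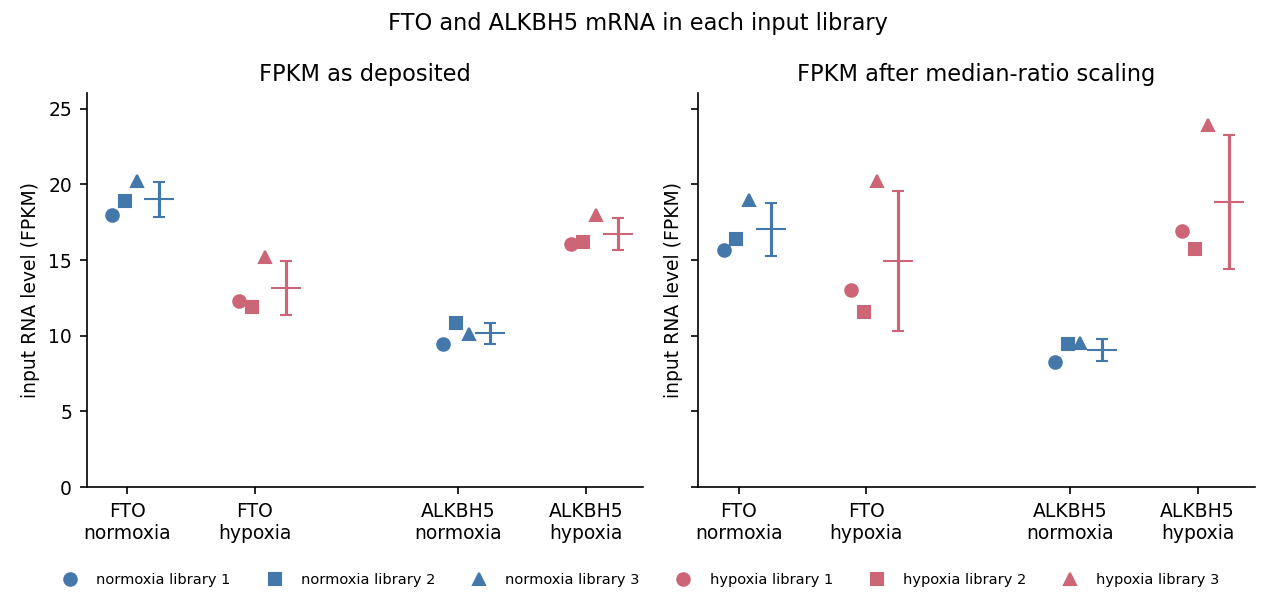
Input RNA level of FTO and ALKBH5 in FPKM (y axis) in each normoxia (blue) and hypoxia (red) library, as deposited on the left and after median-ratio scaling on the right; bars are mean ± SD of 3 libraries. On both scales the ALKBH5 groups are separate, with 9.43 to 10.9 against 16.0 to 18.0 FPKM as deposited, whereas the FTO groups are separate as deposited and overlap after scaling, where hypoxia library 3 reaches 20.2.

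Dividing each library by its median-ratio factor gave FTO 15.7, 16.4 and 19.0 in normoxia and 13.0, 11.5 and 20.2 in hypoxia. Hypoxia library 3 was then the highest of the 6 and the groups overlapped. The log2 change of FTO became -0.21 (SE 0.233), with limma's adjusted p at 0.603, where 8.07% of tested genes were called lower and 19.8% had all hypoxia values below all normoxia values. ALKBH5 had 8.24, 9.43 and 9.52 in normoxia and 16.9, 15.7 and 23.9 in hypoxia on this scale, again with no overlap. Its log2 change was 0.96 (SE 0.203, adjusted p = 0.0184), where 6.64% of tested genes were called higher and 16.5% had all hypoxia values above all normoxia values.

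Without hypoxia library 3, FTO fell on both scales, with a log2 fold change of -0.61 (limma adjusted p = 0.00434) as deposited and -0.44 (adjusted p = 0.0360) after scaling. ALKBH5 rose on both, with 0.62 (adjusted p = 0.00439) and 0.79 (adjusted p = 0.000854). Calls were more frequent among all genes as well without this library: 31.2% were lower and 11.2% higher as deposited, and 22.3% and 18.4% after scaling. With any 1 of the other libraries left out and hypoxia library 3 kept, FTO lost its call on the deposited scale (adjusted p from 0.0934 to 0.167). ALKBH5 lost its call without hypoxia library 1 (0.0523) or without normoxia library 1 (0.0605), 2 (0.0546) or 3 (0.0612), and its log2 fold change stayed between 0.62 and 0.72.

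In the authors' deposited table of expression changes, ALKBH5 had a log2 fold change of 0.72 with a p-value of 0.000263 and a q-value of 0.00268. FTO had a log2 fold change of -0.54 in the authors' deposited table, with a p-value of 0.381 and a q-value of 0.619. A q-value under 0.05 was reached there by 6.84% of all listed genes in the upward and 6.88% in the downward direction. The authors' deposited table marks neither eraser as significant; its marked genes change at least 2-fold, and both erasers change by less. The call on ALKBH5 was thus shared by both tests, and that on FTO was not.

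The ratio of FTO to ALKBH5 within a library does not depend on how libraries are scaled. It was 1.90, 1.74 and 2.00 in normoxia libraries 1, 2 and 3 and 0.768, 0.735 and 0.845 in hypoxia libraries 1, 2 and 3. The groups were far apart, and the ratio crossed 1 in every hypoxia library. FTO made up 65.2% ± 1.60 of the summed FPKM of both erasers in normoxia and 43.9% ± 1.77 in hypoxia (SD, n = 3). On the log2 scale the ratio changed by -1.26 in hypoxia, a factor of 0.417, from 0.91 ± 0.102 to -0.36 ± 0.103 (SD, n = 3). The two-sided exact permutation p was 0.1, the smallest that 3 against 3 libraries can give, and 0.15 after adjustment over the 3 ratios tested. For none of these ratios is the share of other gene pairs without overlap given.

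METTL3, the catalytic subunit of the m6A writer complex, served as a common denominator. The ratio of ALKBH5 to METTL3 was 1.46, 1.79 and 1.50 in normoxia and 3.16, 3.46 and 4.37 in hypoxia, with no overlap. Its log2 change was 1.21 (exact permutation p = 0.1, adjusted 0.15). The ratio of FTO to METTL3 was 2.78, 3.11 and 2.99 in normoxia and 2.43, 2.54 and 3.69 in hypoxia. These groups overlapped, with hypoxia library 3 above and hypoxia libraries 1 and 2 below all normoxia libraries, and the log2 change was -0.058 (exact permutation p = 0.9). METTL3 itself had 6.44 ± 0.352 and 4.62 ± 0.486 FPKM (SD, n = 3) and did not pass the test (log2 fold change -0.41, limma adjusted p = 0.0890).

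**Figure D2:**
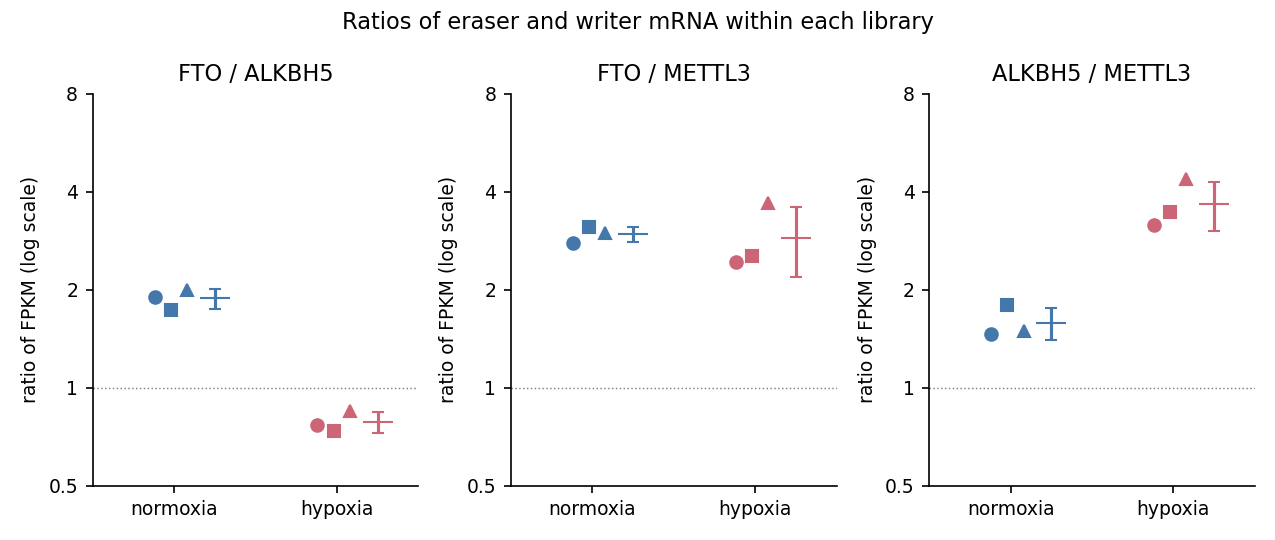
Ratios of FPKM within each library on a log scale (y axis), normoxia in blue and hypoxia in red, with circles, squares and triangles for libraries 1, 2 and 3 and bars for mean ± SD. FTO to ALKBH5 drops from between 1.74 and 2.00 to between 0.735 and 0.845, ALKBH5 to METTL3 goes from at most 1.79 to at least 3.16, and FTO to METTL3 overlaps between conditions.

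A rank within a library is likewise free of scaling. On the percentile scale of FPKM among tested genes, ALKBH5 stood at 60.1, 62.9 and 62.7 in normoxia and at 76.9, 76.5 and 79.9 in hypoxia. It moved up by 15.9 percentile points with no overlap (exact permutation p = 0.1, two-sided), and by 8.97 points when ranked among all listed genes. The share of tested genes whose ranks do not overlap is not given. For FPKM, 9.25% of tested genes had no overlap upward as deposited and 16.5% after scaling. FTO stood at 75.8, 76.0 and 78.3 in normoxia and at 71.3, 69.4 and 77.2 in hypoxia. Its shift of -4.07 points came with overlapping groups (exact permutation p = 0.3), as hypoxia library 3 lay within the normoxia range.

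Within the AlkB family of 9 genes, the erasers were among the 3 most abundant transcripts per length in both conditions. In normoxia the order was FTO (18.0 to 20.2 FPKM), ALKBH6 (14.7 to 16.8), ALKBH5 (9.43 to 10.9) and ALKBH4 (5.21 to 7.34), with no overlap between neighbours in this order. In hypoxia it was ALKBH5 (16.0 to 18.0), FTO (11.9 to 15.2), ALKBH6 (8.05 to 11.6) and ALKBH4 (4.21 to 5.99), again with no overlap. The other members ALKBH7, ALKBH3, ALKBH8, ALKBH1 and ALKBH2 averaged at most 3.72 FPKM in either condition. Of the 7 other AlkB genes tested, 0 were called higher and 1 lower by limma, where 5.4% of all tested genes were higher and 21.1% lower, with a median log2 fold change of -0.30 against -0.26 over all tested genes, and 2 had an unadjusted p under 0.05. The lower gene was ALKBH6, with 15.7 ± 1.02 and 9.64 ± 1.83 FPKM (SD, n = 3). Its log2 change was -0.66 with a limma adjusted p of 0.0270. ALKBH6 lost its call after median-ratio scaling (-0.37, adjusted p = 0.368) and without any 1 library other than hypoxia library 3 (adjusted p up to 0.124). After scaling, ALKBH2, a DNA repair dioxygenase, was the 1 gene called higher (0.59, limma adjusted p = 0.0382). On the deposited scale it had 0.41 (0.0722), and it passed there without hypoxia library 3 (0.0353). In normoxia ALKBH2 had 0.828 to 1.18 FPKM, so its hypoxia values were needed to reach 1 FPKM in 3 libraries, as the test required.

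**Figure D3:**
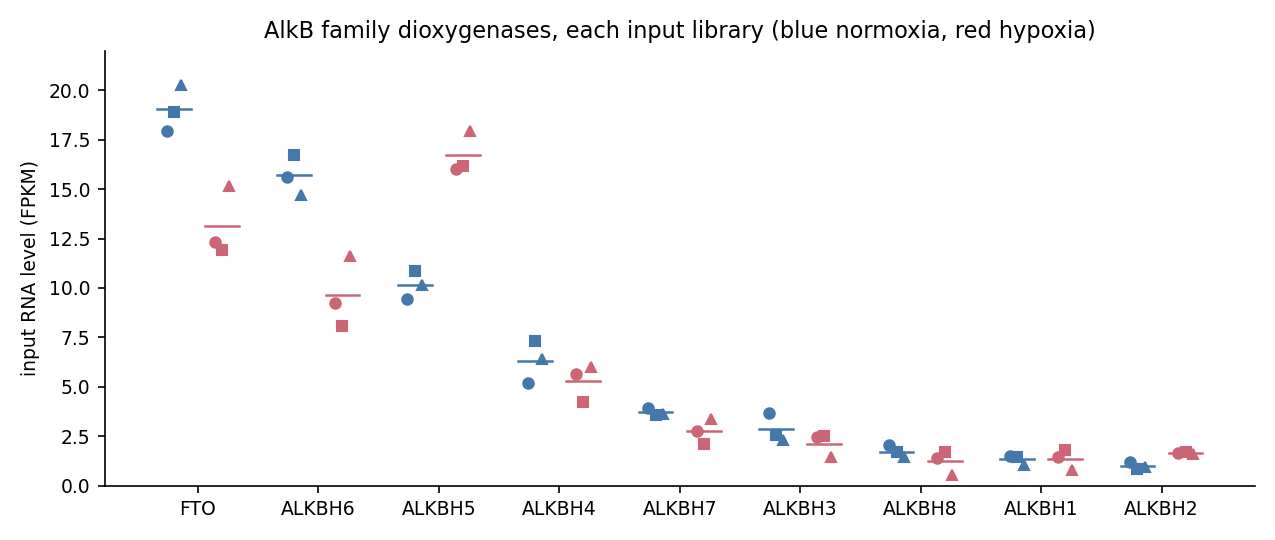
Input RNA level in FPKM (y axis) of the 9 AlkB family genes, ordered by their normoxia mean, with 3 normoxia (blue) and 3 hypoxia (red) libraries each and a line at the mean. ALKBH5 alone among the 4 most abundant genes sits higher in hypoxia in every library (at least 16.0 against at most 10.9 FPKM).

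Of 11 tested writer genes 0 were called higher and 1 lower, where 5.4% of all tested genes were called higher and 21.1% lower. Their median log2 fold change was -0.31. Of the 11, 10 lay between FTO and ALKBH5, which stood at percentiles 30.2 and 94.2 of the log2 fold changes of all tested genes. So did 7 of 10 readers, 6 of 7 other AlkB genes, 8 of 13 genes for 2-oxoglutarate and iron supply and 6 of 24 nuclear transport genes. The writer called lower was TRMT112, a cofactor of METTL5 and of other methyltransferases, with 50.3 ± 1.16 and 28.1 ± 7.46 FPKM (-0.85, limma adjusted p = 0.0219). After rescaling, TRMT112 was at -0.55 (adjusted p = 0.271), and it lost its call without hypoxia library 1 or any 1 normoxia library (adjusted p from 0.0750 to 0.0893). Of 10 tested readers 1 was higher and 1 lower, with a median of -0.28. These lists are small, and nothing particular to them is read from their counts. The higher reader was IGF2BP2, which binds methylated mRNA (0.726 ± 0.0703 and 2.13 ± 0.508 FPKM, log2 fold change 0.85, adjusted p = 0.0100), and the lower one ELAVL1, an RNA-stabilising protein (27.1 ± 2.39 and 14.2 ± 3.98, -0.92, adjusted p = 0.0236). In normoxia IGF2BP2 had 0.668 to 0.804 FPKM, under the 1 FPKM required in 3 libraries, so only its hypoxia values let it be tested. IGF2BP2 lost its call narrowly, with 0.0522 without normoxia library 2 and 0.0509 without normoxia library 3. ELAVL1 lost its call too, with 0.0550 after scaling and 0.0576 to 0.0977 without hypoxia library 1 or any 1 normoxia library.

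Of 13 tested genes for 2-oxoglutarate and iron supply 0 were called higher and 4 lower, with a median log2 fold change of -0.38, where 21.1% of all tested genes were called lower. After median-ratio scaling 1 was called lower, where the share of all genes was 8.07%. The gene called on both scales was GOT1, the cytosolic aspartate aminotransferase that interconverts glutamate and 2-oxoglutarate. GOT1 fell from 25.7 ± 0.642 to 5.28 ± 0.978 FPKM (SD, n = 3). Its log2 change was -2.10 (limma adjusted p = 0.000434), and -1.82 once rescaled. The mitochondrial 2-oxoglutarate carrier gene SLC25A11 had -1.08 (adjusted p = 0.0125, 0.134 after scaling). The isocitrate dehydrogenase subunits IDH3B and IDH3A had -0.63 (adjusted p = 0.0221, 0.430 after scaling) and -1.14 (0.0406, 0.0615 after scaling). All 3 lost their calls without normoxia library 2 (adjusted p = 0.0670, 0.0988 and 0.128), normoxia library 3 (0.0553, 0.0863 and 0.0783) or hypoxia library 1 (0.0581, 0.0799 and 0.0874), and the IDH3 genes also without normoxia library 1 (0.0819 and 0.140). The list then counted 2 lower genes without normoxia library 1 and 1 without each of the other 3 libraries named here, while leaving out hypoxia library 3 gave 6.

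Nuclear transport factors were listed because the study's title concerns nuclear export. As deposited, all 24 tested genes had a negative log2 fold change, with a median of -0.78. After median-ratio scaling the median was -0.49, against -0.02 for all genes, and XPO6 (0.015) and KPNB1 (0.0093) were above 0. Of the 24, 9 were called lower as deposited and 0 higher, where 21.1% of all tested genes were called lower. After scaling 3 were lower, RANBP1, RANGAP1 and RCC1, where the share of all genes was 8.07%. With 1 library left out the deposited scale gave 6 to 16, and over the same runs 798 to 3186 of all tested genes were called lower. The genes with the smallest p were RANBP1, a cofactor of Ran GTP hydrolysis (64.9 ± 7.80 and 14.7 ± 2.62 FPKM, -2.08, limma adjusted p = 0.000656), and RANGAP1, the GTPase activator of Ran (14.9 ± 1.38 and 4.72 ± 1.32, -1.49, adjusted p = 0.00321). NXT1, a partner of the mRNA export receptor, had -0.95 (adjusted p = 0.00540, 0.0870 after scaling), and the importin gene IPO9 had -0.79 (adjusted p = 0.00643, 0.170 after scaling). RCC1, called on both scales, had 4.23 ± 0.782 and 1.36 ± 0.459 FPKM (-1.15, limma adjusted p = 0.00855, 0.0110 after scaling). Of the 7 exportin genes of the list, which carry cargo out of the nucleus, 2 were called lower: XPO4 (4.80 ± 0.422 and 2.49 ± 0.0499 FPKM, -0.73, adjusted p = 0.0128) and XPO5, which exports miRNA precursors (53.3 ± 1.32 and 34.7 ± 3.34, -0.61, adjusted p = 0.0159). Both lost their calls after scaling (0.0913 and 0.281), without normoxia library 1 (0.0641 and 0.0713) or 2 (0.0763 and 0.0757) and without hypoxia library 1 (0.0655 and 0.0605), and XPO5 also without normoxia library 3 (0.0700). The main export receptor gene XPO1 had 8.14 ± 1.41 and 6.52 ± 4.19 FPKM (-0.44, adjusted p = 0.501), and CSE1L, the exportin that recycles importin alpha, had 17.9 ± 2.96 and 10.3 ± 5.55 (-0.87, adjusted p = 0.152). These 4 exportins were picked for their role after their values were seen. CSE1L passed without hypoxia library 2 (-1.21, adjusted p = 0.0375).

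**Figure D4:**
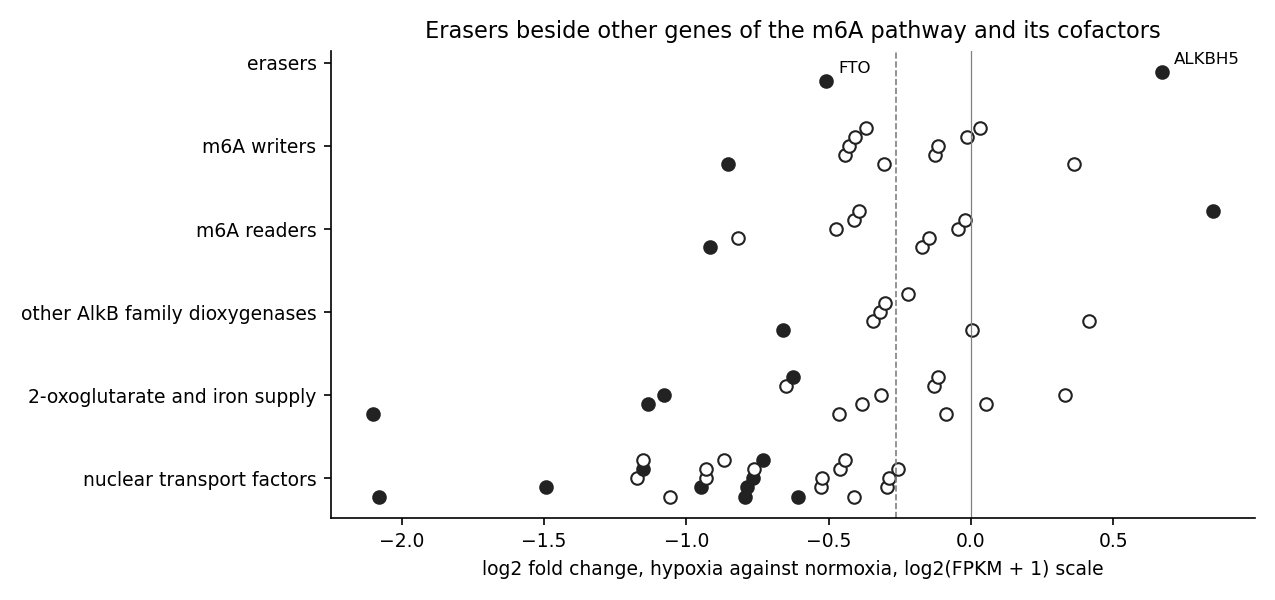
Log2 fold change of each tested gene (x axis, log2(FPKM + 1) scale) for the erasers and 5 gene lists; filled points passed an adjusted p of 0.05 and the dashed line marks the median of all tested genes, -0.26. ALKBH5 (0.67) lies to the right of every point but that of IGF2BP2 (0.85), a gene tested only through its hypoxia values. FTO (-0.51) lies to the right of most nuclear transport genes, whose median is -0.78.

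Calls among the chromosomal neighbours are to be read beside the 26.5% of all tested genes called in either direction and the 21.1% called lower. Of the 3 nearest listed genes on each side of FTO, 5 were tested and 1 passed, IRX3, a homeobox transcription factor gene whose promoter is contacted by enhancers inside FTO in human and mouse cells. IRX3 lies 126 kb beyond the 3′ end of FTO and had 5.08, 7.34 and 7.67 FPKM in normoxia and 12.9, 12.0 and 14.8 in hypoxia. Its groups did not overlap and its direction was opposite to that of FTO, with a log2 change of 0.90 (SE 0.188). The limma adjusted p was 0.0132 as deposited and 0.0187 when rescaled. The call was lost without normoxia library 2 (0.0511) or hypoxia library 1 (0.0553). RPGRIP1L, a ciliary gene, begins 267 bases from the 5′ end of FTO on the opposite strand and had 1.37 ± 0.274 and 1.01 ± 0.518 FPKM (SD, n = 3; -0.26, adjusted p = 0.437). The homeobox gene IRX5 (0.015), AKTIP (-0.65) and RBL2 (0.50) did not pass, though AKTIP passed without hypoxia library 2 (-0.84, adjusted p = 0.0378) and RBL2 without hypoxia library 3 (0.84, adjusted p = 0.00254). AKTIP and RBL2 overlap on opposite strands, and whether reads were assigned by strand is not stated, so their values may not be separate.

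Beside ALKBH5, 5 of the 6 nearest genes were tested and 2 were called lower. ATPAF2, an assembly factor of the mitochondrial ATP synthase 87.9 kb away, fell from 18.9 ± 3.17 to 7.31 ± 0.331 FPKM. Its log2 change was -1.25 (limma adjusted p = 0.00238, and 0.0207 when rescaled). DRG2, which codes for a GTP-binding protein, had -0.78 (adjusted p = 0.0118, 0.221 after scaling, and 0.0548 to 0.0711 without hypoxia library 1 or normoxia library 2 or 3). FLII (-0.37), LLGL1 (-0.19, but 0.10 after scaling) and GID4 (0.34) did not pass with all libraries. FLII passed without hypoxia library 3 (-0.51, adjusted p = 0.0131). FLII and LLGL1 overlap at their ends on opposite strands, so their values too may not be fully separate.

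The tested genes whose log2(FPKM + 1) over the 6 libraries was most like that of FTO were FBXO6 (Pearson r = 0.999), PPT2 (0.998), ARFGAP2 (0.998), TMCO4 (0.997) and RPS6KA2 (0.997). Those most like ALKBH5 were PACSIN3 (0.998), MARVELD2 (0.996), NADSYN1 (0.995), PPP1R13L (0.995) and RHOB (0.995). These 6 points fall into 2 conditions and share their libraries, so the correlations are descriptions of likeness only. NADSYN1, which codes for the last enzyme of NAD+ synthesis from nicotinic acid, had 3.92 ± 0.694 and 12.0 ± 2.39 FPKM (SD, n = 3). FTO and ALKBH5 had r = -0.83 with each other.

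Both erasers carried m6A peaks on their own transcripts. FTO had 1 peak in each condition, while ALKBH5 had 1 in normoxia and 4 in hypoxia. Neither gene has a peak in the authors' deposited table of differential m6A, which holds 1206 peaks in 1095 genes, or 8.77% of the 12482 genes with a peak in either condition. Enrichments, p-values and adjusted p-values of peaks are the authors' own, 1 per peak and condition, so no spread over libraries can be given for them. Because the tables hold no values per library, the differences in enrichment below could not be tested here.

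The ALKBH5 peak in normoxia lay at chr12:60529017-60529554, 179 bases from the annotated 5′ end, and was annotated as 5′ UTR. Its enrichment of IP over input was 4.76-fold (the authors' adjusted p = 3.63e-07), percentile 56.8 of the normoxia list, whose median is 4.23-fold. In hypoxia a peak at chr12:60528957-60529405, annotated as exonic, overlapped it by 389 bases, 72.3% of the normoxia and 86.6% of the hypoxia peak. Its enrichment was 9.28-fold (adjusted p = 2.75e-05), percentile 83.6 of the hypoxia list, whose median is 4.81-fold. The value 9.28 is shared by 561 peaks and is the fourth most frequent in that list, and 4.76 is shared by 257 normoxia peaks. Such repeated values make the step from 4.76 to 9.28 a coarse measurement.

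The other 3 ALKBH5 peaks in hypoxia had no normoxia counterpart. A 90-base peak annotated as 5′ UTR, chr12:60529644-60529733, ended at the annotated 5′ end itself with 4.33-fold enrichment (adjusted p = 0.00398). RefSeq places the 5′ end of ALKBH5 in Sscrofa11.1 at 60530239, 506 bases further upstream, so the edge of this peak is also the edge of the gene model in the deposited tables. A pair of short peaks lay 20.5 and 20.6 kb from the 5′ end, separated by 59 bases. The upstream one, chr12:60509159-60509218, was annotated as exonic with 1.54-fold enrichment (adjusted p = 2.09e-05), and the other, chr12:60509039-60509099, as 3′ UTR with 1.80-fold (adjusted p = 0.000331). Both were weak for the list, at percentiles 1.91 and 5.50.

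A gain of this size in peak number was uncommon. Of the 4747 genes with 1 normoxia peak, 88 (1.85%) had at least 4 in hypoxia, 2600 (54.8%) had 1 and 1078 (22.7%) had none. Over all genes with peaks, 2.48% had at least 3 more peaks in hypoxia and 2.39% at least 3 fewer. These shares are not matched for change in input RNA, which for ALKBH5 was a ratio of 1.65. They count all listed peaks, of which 13.1% in normoxia and 13.2% in hypoxia had an authors' adjusted p of 0.05 or more. The ALKBH5 peaks were all below 0.05. The median span of all peaks was 687 bases in normoxia and 449 in hypoxia. Whether RNA level or peak span bears on the gain was not tested. At 4-fold enrichment or more, 2 of the 4 hypoxia peaks of ALKBH5 and its 1 normoxia peak remained, all of them at the 5′ end.

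The FTO peaks were annotated as exonic, with a long distance from first to last base. In normoxia the peak ran over chr6:31427707-31458744, a span of 31.0 kb that began 106 kb from the annotated 5′ end, with 3.90-fold enrichment (adjusted p = 2.00e-84). In hypoxia it ran over chr6:31427677-31564629, a span of 137 kb that reached to 89 bases from the 5′ end, with 5.04-fold enrichment (adjusted p = 1e-111). The normoxia peak lay wholly inside the hypoxia peak and covered 22.7% of its span, with the ends toward the 3′ side 30 bases apart. The hypoxia peak thus ended close to the 5′ end of the gene, and the normoxia peak did not. The deposited tables give first and last bases only, so how many exonic bases each peak covers is not known here. Spans over 100 kb were rare, at 0.581% of hypoxia and 0.805% of normoxia peaks. The enrichments stood at percentiles 46.7 and 52.3 of their lists. Both FTO peaks were assigned to a transcript that is not among the 3 of the FTO row of the expression table, as were 9.08% of normoxia and 8.92% of hypoxia peaks of listed genes.

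**Figure D5:**
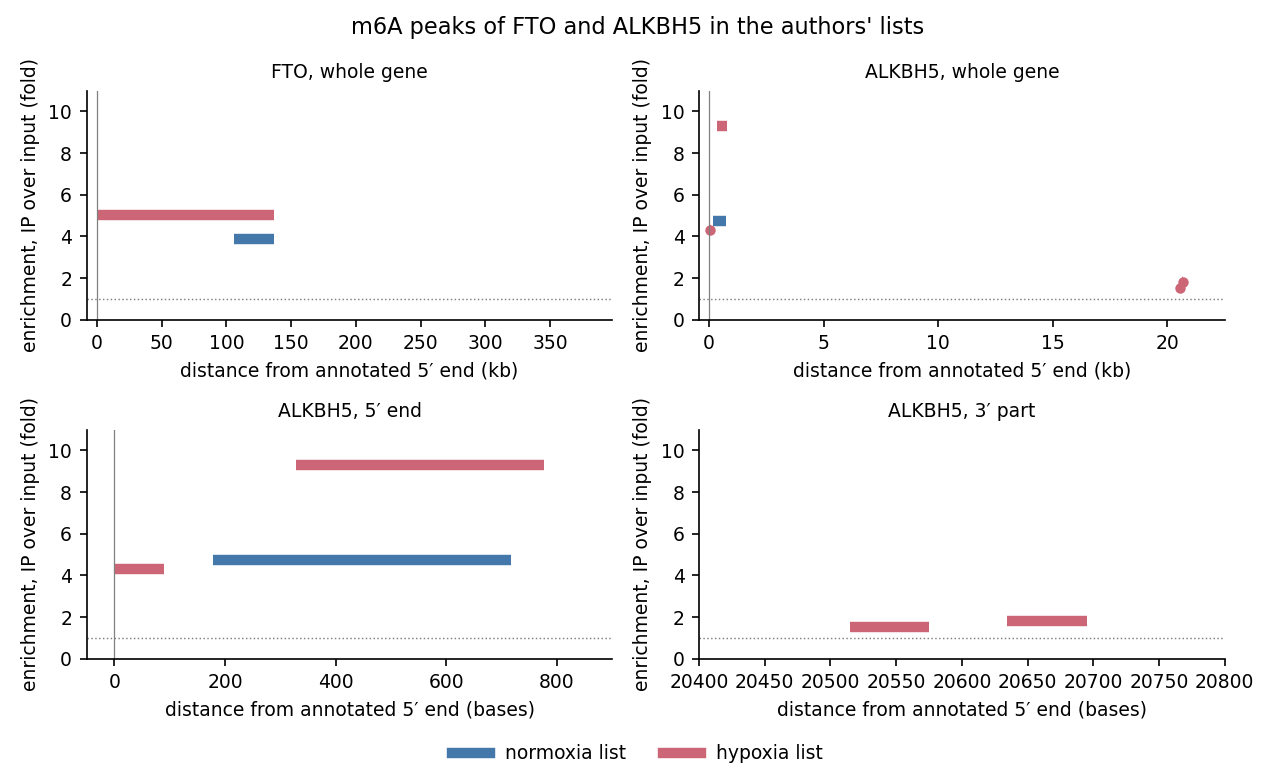
Enrichment of IP over input in fold (y axis, the authors' values) of each m6A peak of FTO and ALKBH5 against distance from the annotated 5′ end (x axis, kb in the upper and bases in the lower panels); bars span each peak, dots mark short ones, blue is normoxia and red hypoxia, and the dotted line marks no enrichment. The FTO peak extends to the 5′ end in hypoxia, and ALKBH5 has 1 peak near the 5′ end in normoxia but 2 there and 2 weaker ones near the 3′ end in hypoxia.

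For comparison, peaks were listed for 12 of the 13 writer genes in normoxia and 11 in hypoxia. The counts were 9 and 8 of the 11 listed reader genes, and 6 and 7 of the 7 other AlkB genes. Over the whole series, 11602 genes had a peak in normoxia and 11047 in hypoxia, beside 18060 genes in the expression table. More peaks in hypoxia than in normoxia were listed for 2 writer genes, 3 of the 11 listed reader genes and 2 other AlkB genes, and fewer for 3, 2 and 3. Over all genes with a peak, 27.2% had more and 33.5% fewer. None of the writer, reader and other AlkB genes listed gained as many peaks as ALKBH5; the largest gain was from 1 to 3 in YTHDF2, which codes for a reader linked to mRNA decay. The authors' deposited table of differential m6A lists 1 peak each in the reader gene YTHDF1 (log2 difference -0.35) and in ALKBH3 (-0.69), and no peak in the writer genes.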

How the data were processed

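Input and IP libraries were made by the submitters from fragmented poly(A) RNA with a strand-marking (dUTP) preparation and sequenced as paired ends, per the labels' protocols, which name 1 batch. The submitters' processing notes name Sscrofa11.1 as build and, without roles, HISAT2 2.0.4, StringTie 2.1.2, edgeR 4.1, HOMER 4.10, fastp 0.19.4 and FastQC. The peak caller, any pooling of replicates and the tool behind each table are not given in these sources. The authors deposited FPKM per gene, a log2 fold change with p-value and q-value per gene, and log2 enrichments or differences with p-values per peak, per the file headers. Positive differential values are read as higher in hypoxia. Peak starts, which count from 0 in the deposited tables, are given counted from 1.

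From these values, limma 3.58.1 (R 4.3.3, trend and robust) compared 3 hypoxia with 3 normoxia input libraries on log2(FPKM + 1), a scale that understates changes of low genes. A gene was tested if 3 or more libraries reached 1 FPKM, with Benjamini-Hochberg adjustment over all of them at 0.05, and the script was tested on simulated data. The alternative scaling divided FPKM by a median-ratio factor per library. Ratios and percentiles were compared by two-sided exact permutation over libraries (scipy 1.17.1). Genes named by rule are the erasers, METTL3, 3 neighbours per side, the 5 most like each eraser and 2 hypoxia-responsive genes. From each list they are the genes past the threshold (at most 4 per direction, smallest p). Others fall outside this rule, among them cell markers, further AlkB genes, RCC1, XPO6, KPNB1, YTHDF1 and YTHDF2. Only XPO1, XPO4, XPO5 and CSE1L are marked as picked after their values were seen. Members and lists were chosen with earlier results of these data known. Peak overlap was counted on spans, since exon blocks are not given. No sequence is printed, as none was at hand.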

Additional observations from a re-analysis of the deposited data

How the results depend on the processing

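The FTO log2 fold change of -0.51 (limma adjusted p = 0.0457) was negative under every alternative run. It stayed called at a pseudocount of 0.1, with equal sums, with a replicate block and without trend or robust estimation, but not after median-ratio scaling (-0.21, adjusted p = 0.603) or without the filter on low values (-0.51, adjusted p = 0.0588). With 1 library left out it ran from -0.61 to -0.45 as deposited. After median-ratio scaling, a combination chosen after seeing the data, it was -0.27, -0.24 and -0.14 without normoxia library 1, 2 or 3 and -0.14, -0.060 and -0.44 without hypoxia library 1, 2 or 3, and passed only in the last. ALKBH5 stayed positive throughout and called under each of these except leave-one-out, where it ran from 0.62 to 0.72. After scaling it was 0.90, 0.99 and 0.99 without normoxia library 1, 2 or 3 and 1.02 without hypoxia library 1, where it did not pass, and 1.07 and 0.79 without hypoxia library 2 or 3, where it did. The log2 FTO to ALKBH5 ratio ran from -1.32 to -1.22 with 1 library left out and was -1.18 from FPKM + 1. The FTO to METTL3 ratio ran from -0.25 to 0.054 and so changed sign. The percentile shift of ALKBH5 was 8.97 points among all listed genes.

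Counts of calls moved more. As deposited 551 genes were higher and 2148 lower in hypoxia, and after median-ratio scaling 677 and 823. With 1 library left out the deposited scale gave 334 to 1143 and 798 to 3186, both highest without hypoxia library 3. After scaling the lower genes numbered 0 among writers, 0 among readers, 0 among other AlkB genes, 1 in cofactor supply and 3 in nuclear transport, with 1 higher gene each among readers and other AlkB genes. With 1 library left out, lower genes ran from 0 to 1, 0 to 1, 0 to 2, 1 to 6 and 6 to 16 in these lists, and higher genes from 0 to 1 in the first 3. Whether the replicate numbers pair the libraries is not settled. Deviations of same-numbered libraries correlated at 0.586, 0.04 and 0.697, and those of differently numbered libraries at -0.712 to 0.641. With the replicate block, 14 nuclear transport genes were lower, AKTIP had an adjusted p of 0.0399 and CSE1L 0.0304. Scaling moved the median of all genes from -0.26 to -0.02, and several genes that did not pass changed sign with it, among them LLGL1 (0.10), INHA (0.27), XPO6 (0.015) and KPNB1 (0.0093). With 1 library left out, the sign also changed for IRX5 (-0.089 to 0.071) and XPO1 (-0.85 to 0.043).

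At 4-fold enrichment FTO kept 0 peaks in normoxia and 1 in hypoxia, and ALKBH5 1 and 2. Counting only overlaps of at least 50% of each peak, 1 pair of peaks was shared between conditions, that of ALKBH5, against 2 at 1 base. The causes of these changes were not tested. Depth is unknown, so no counting limit can be given.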
